A study of Mus musculus with 8 samples.

Results

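Respiratory complexes II to V, the part of the mitochondrial electron transport chain and ATP synthase that follows or runs beside complex I, were examined in mouse brain after methanol and after normal saline. Members were all probes of the Illumina mouse expression array whose platform gene symbol names a gene of complex II (Sdha to Sdhd and the Sdhaf assembly factors), complex III (the Uqcr genes and Cyc1), cytochrome c (Cycs), complex IV (Cox4 to Cox8 genes and the Cox10 to Cox19 assembly factors) or complex V (the Atp5 genes). The rule used names only, and no measured value. It found 72 probes of 59 genes among 25697 probes of the array. Of these, 59 probes of 51 genes were detected on at least 4 of the 8 arrays (detection p under 0.05, the Illumina measure of signal above negative control beads) and were compared. Sdha itself was not analysed here, because no probe carried its symbol in the annotation used.

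The series held 8 arrays of whole brain tissue from male mice, 4 labelled methanol-treated and 4 labelled as normal saline controls. The labels give 120 mg/kg methanol in a volume of 350 µl for the methanol group and 350 µl of normal saline for the control group, with brain collected after 2 h of treatment. The labels name neither strain nor age and no other agent. The methods of the study describe male BALB/c mice that inhaled methanol or water vapor in larger groups and for another length of time. The treatment and the control of these 8 arrays are therefore known only from the labels, and no route is given here. The design text counts 4 mice in each group but does not tie each array to an animal, so the p-values measure the spread between arrays. Saline replicate 3 stood apart in markers of the choroid plexus, an epithelium of the brain ventricles, whose values are given at the end. Without this array, the Cox15 result described next remained called (log2 change 0.73, adjusted p = 0.00498, limma), while those of Cox11 (0.46, adjusted p = 0.0657) and Sdhb (-0.33, adjusted p = 0.128) were not.

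Complex II (succinate dehydrogenase) passes electrons from succinate to ubiquinone, complex III passes them on to cytochrome c, and complex IV (cytochrome c oxidase) uses them to reduce oxygen to water. Complexes III and IV pump protons, and complex V makes ATP from the resulting gradient. Methanol is oxidized by way of formaldehyde to formate, and formate is a known inhibitor of cytochrome c oxidase, which is one reason the retina, the optic nerve and parts of the brain are known to suffer in methanol poisoning. Complex IV also needs dedicated helpers that are not part of the finished enzyme, among them enzymes that make its heme A and chaperones that load its copper. The arrays measure the mRNA of nuclear genes of these complexes, not enzyme activity.

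Of the 59 tested probes, 3 passed the test and 56 did not. Cox15, which makes heme A, and Cox11, which inserts copper into the CuB center of complex IV, were higher in methanol brains. A single probe of Sdhb, the iron-sulfur subunit of complex II, was lower in methanol brains. These 3 of 59 tested members (5.08%) compare with 669 of all 11938 tested probes (5.6%) at an adjusted p under 0.05 (limma, Benjamini-Hochberg over all tested probes). The members higher in methanol brains were 2 (3.39%), against 3.12% of all tested probes, and the member lower was 1 (1.69%), against 2.49%. The share of members called was therefore near that of the array as a whole. In whole tissue, fewer cells of a type and less RNA per cell cannot be told apart.

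**Figure D1:**
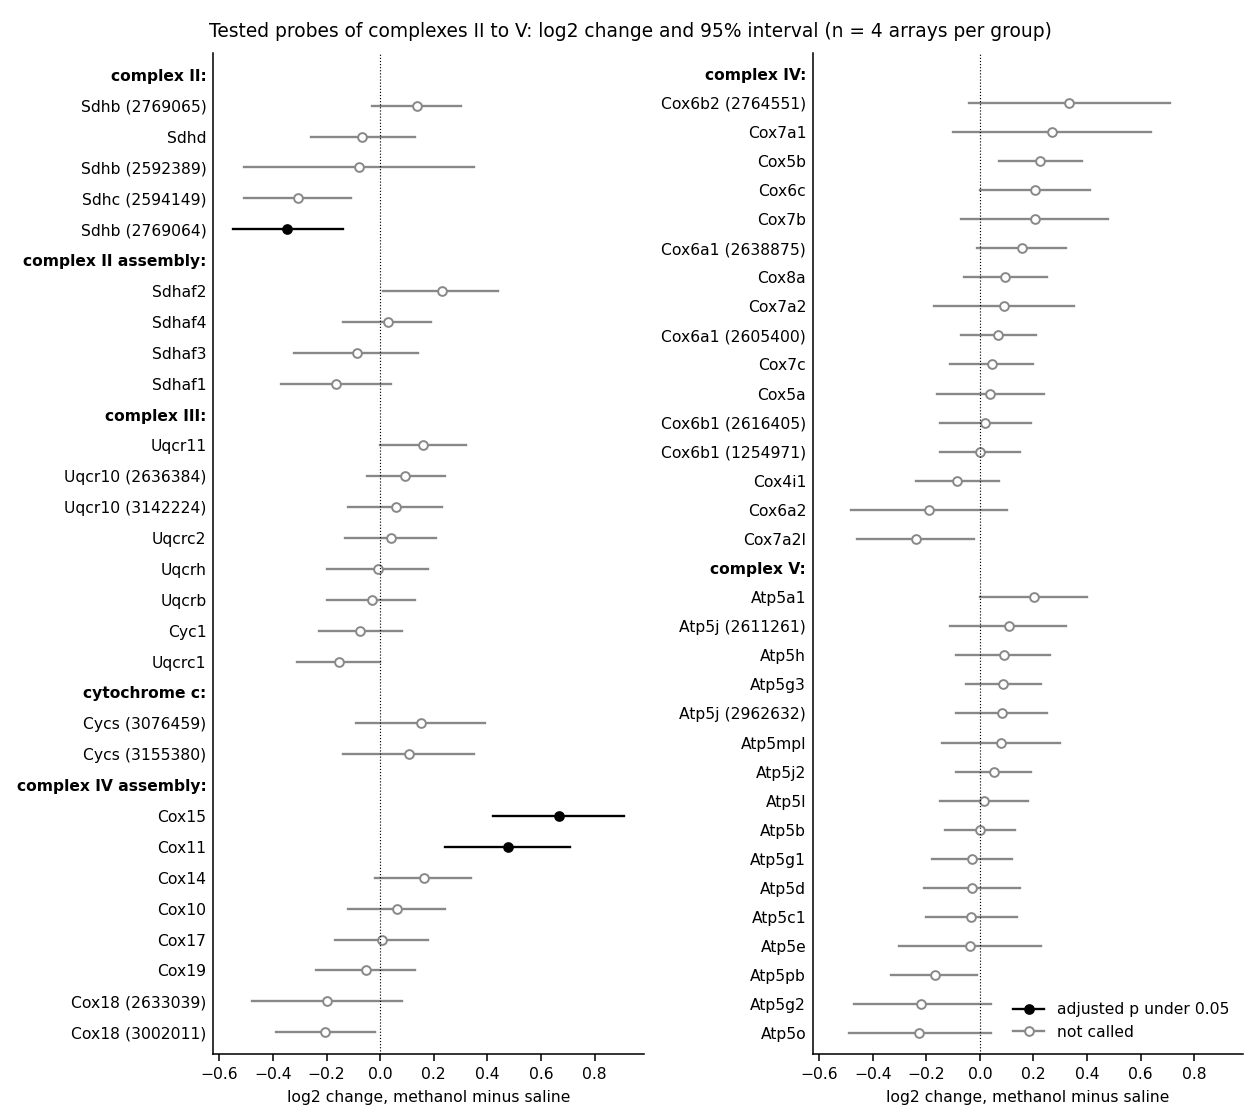
The log2 change (methanol minus saline, x axis) of each of the 59 tested probes is drawn as a point with its 95% interval from limma, grouped by complex and sorted by size, with the probe number in brackets where a gene has several probes. Filled black points mark the 3 probes with an adjusted p under 0.05, Cox15 and Cox11 on the right of 0 and an Sdhb probe on its left, and 52 of the 59 intervals lie inside -0.5 to 0.5.

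Values are given below on a log2 intensity scale after background correction and quantile normalization, so that a step of 1 is a doubling, and levels are compared only within a probe. Cox15 had 7.60, 7.59, 7.78 and 7.50 on the 4 methanol arrays, against 7.05, 6.72, 7.12 and 6.89 on the saline arrays. Every methanol array was above every saline array, with a gap of 0.38 between the nearest pair. Cox15 averaged 7.615 ± 0.12 in methanol brains and 6.948 ± 0.18 in saline brains (SD, n = 4 each), a log2 change of 0.67 with a standard error of 0.11 and a 95% interval of 0.42 to 0.91. This was a 1.59-fold higher signal with an adjusted p of 0.00305 by limma. The exact two-sided permutation test gave 0.0286, the smallest p that 4 against 4 arrays allow. Every probe whose groups do not overlap has this p (12.4% of all tested probes), so it adds nothing to the lack of overlap.

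Cox11 had 7.41, 7.29, 7.38 and 7.36 on the methanol arrays, against 6.86, 7.12, 6.83 and 6.72 on the saline arrays. The groups did not overlap, and the methanol arrays lay close together while saline replicate 2 was nearest to them. The log2 change was 0.48 with a standard error of 0.11 (95% interval 0.24 to 0.71), which is 1.39-fold, with an adjusted p of 0.0224 by limma. The size of both changes depended on the background correction. Without it the log2 change was 0.34 for Cox15 and 0.23 for Cox11, and both were still called. Cox15 kept an adjusted p under 0.05 under all 16 alternatives tried, with the highest at 0.0232, while Cox11 missed it under 5 of them, namely median scaling (0.158) and the removal of methanol replicate 1 (0.0624), methanol replicate 3 (0.056), saline replicate 3 (0.0657) or saline replicate 4 (0.0732).

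Sdhb was read by 3 tested probes, whose changes lay on both sides of 0. The probe ILMN_2769064 had 9.15, 9.30, 8.94 and 9.01 on the methanol arrays, against 9.59, 9.30, 9.51 and 9.39 on the saline arrays. Methanol replicate 2 and saline replicate 2 differed by only 0.0079, and the other arrays of the groups were further apart. The log2 change of this probe was -0.35 with a standard error of 0.096, a methanol over saline ratio of 0.785, with an adjusted p of 0.0466 by limma.

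The probe ILMN_2769065 of the same gene had 10.35, 10.29, 10.44 and 10.48 on the methanol arrays, against 10.35, 10.24, 10.30 and 10.15 on the saline arrays, and the groups overlapped. Its log2 change was 0.14 (adjusted p = 0.337, limma). The dimmest Sdhb probe, ILMN_2592389, spread over 6.12, 5.56, 5.97 and 6.68 on the methanol arrays, against 6.10, 6.0, 6.11 and 6.44 on the saline arrays, with a log2 change of -0.08 (adjusted p = 0.872). The Sdhb call therefore rested on 1 of 3 probes. It was lost under 10 of the 16 alternatives, including the removal of any array other than methanol replicate 2, after which adjusted p lay between 0.0512 and 0.128.

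**Figure D2:**
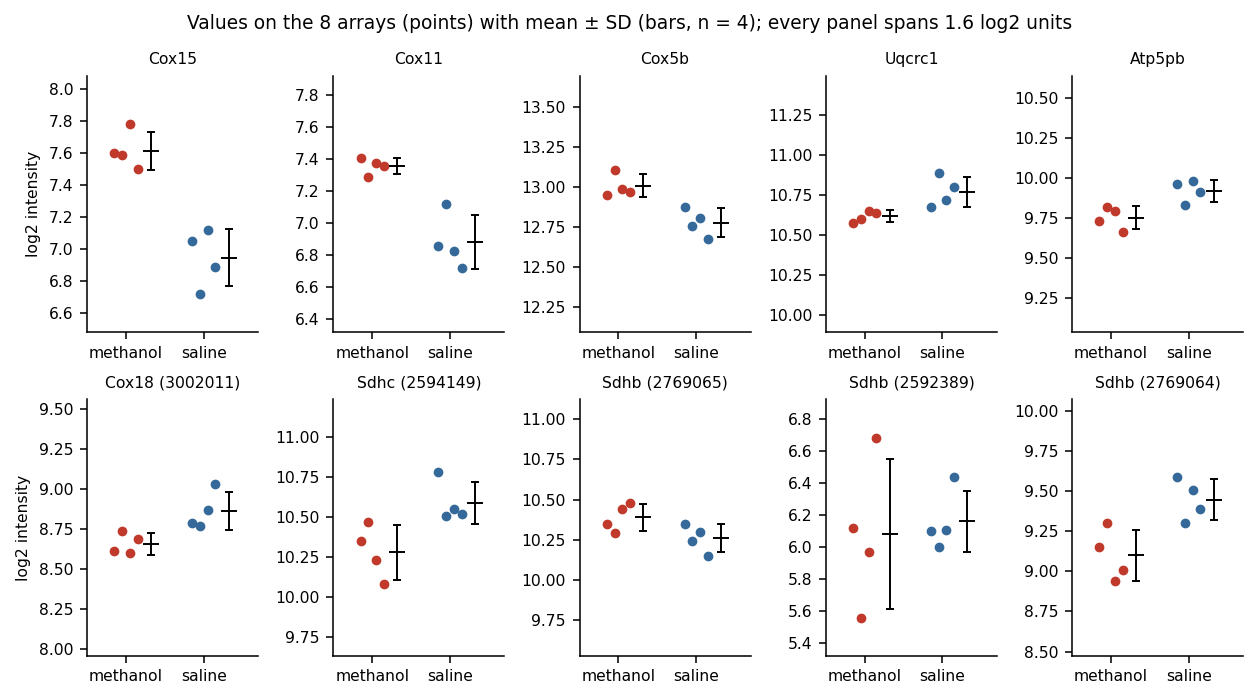
Each panel shows the log2 intensity (y axis) of a probe on the 4 methanol arrays (left, red) and the 4 saline arrays (right, blue), with the mean and SD beside them, for the 8 members whose groups did not overlap and for the other 2 Sdhb probes. Cox15 shows the widest gap, 0.38, while the nearest pair of the Sdhb probe ILMN_2769064 lies 0.0079 apart and the other Sdhb probes overlap.

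The sequence around the transcription start is shown for the 3 called genes, since Cox15 and Cox11 both act on complex IV and rose while an Sdhb probe fell. RefSeq windows of 300 bases (250 before the start and 50 after it, build GRCm38.p6) were searched on both strands for the letters bound by 3 factors known to act on respiratory genes: NRF-1 (GCANGCGC, a core shorter than its full site), GABP (CCGGAAG) and YY1 (AANATGGC). The windows were chr19:43752951-43753250 on the minus strand for Cox15, chr11:90637934-90638233 on the plus strand for Cox11 and chr4:140961021-140961320 on the plus strand for Sdhb. Capitals mark a motif, the rest is in lower case, and each reads 5′ to 3′ in the direction of the gene.
Cox15: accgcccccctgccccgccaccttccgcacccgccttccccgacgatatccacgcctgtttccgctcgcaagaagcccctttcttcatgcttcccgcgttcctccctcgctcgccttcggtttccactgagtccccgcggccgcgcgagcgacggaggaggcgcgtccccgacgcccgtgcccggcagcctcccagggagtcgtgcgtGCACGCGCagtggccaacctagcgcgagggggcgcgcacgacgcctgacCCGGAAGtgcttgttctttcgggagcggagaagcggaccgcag
Cox11: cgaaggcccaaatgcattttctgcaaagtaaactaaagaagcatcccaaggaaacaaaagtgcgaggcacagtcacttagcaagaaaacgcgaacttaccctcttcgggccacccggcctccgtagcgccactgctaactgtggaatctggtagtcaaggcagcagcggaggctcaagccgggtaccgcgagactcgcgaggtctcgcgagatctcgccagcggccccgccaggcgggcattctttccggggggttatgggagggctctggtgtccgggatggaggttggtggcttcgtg
Sdhb: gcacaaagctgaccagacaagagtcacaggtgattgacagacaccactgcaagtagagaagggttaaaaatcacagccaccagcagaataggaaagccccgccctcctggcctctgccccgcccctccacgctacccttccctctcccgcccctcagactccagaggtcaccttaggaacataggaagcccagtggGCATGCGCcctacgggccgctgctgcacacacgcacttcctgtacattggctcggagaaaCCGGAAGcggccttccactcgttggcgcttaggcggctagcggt
Cox15 and Sdhb each held the NRF-1 letters once, upstream of the start (from base 209 of the Cox15 window and base 197 of the Sdhb window). Each also held the GABP letters once, just downstream of the start (from bases 258 and 257), with no overlap between the motifs. The Cox11 window held none of them, which says only that these letters are not in this window.

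Across the members, 45 of the 59 genes had such a window, 49 windows in all. The GABP letters stood in 20 of the 49 (40.8%), against 16% of the 9059 windows of genes with a tested probe and 8.86% of all 32851 windows. The NRF-1 letters stood in 19 (38.8%), against 18.5% of windows of tested genes and 9.61% of all windows. The YY1 letters stood in 7 (14.3%), against 8.11% and 6.05%. These shares describe the letters and were not tested.

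The genes that start or end beside the called ones were read as well. Cox15 lies 22 bases from Cutc and Cox11 lies 47 bases from Stxbp4 in RefSeq. The 4 probes of these neighbours, all detected on 8 of 8 arrays, had log2 changes between -0.14 and 0.29 with adjusted p from 0.293 to 0.88 (limma), so none of these 4 was called. The genes that overlap the called ones could not be compared, since Entpd7, which overlaps Cox15, was detected on 0 arrays and Tom1l1, which overlaps Cox11, had no named probe. Beside Sdhb, Padi2 was detected on 0 arrays and Atp13a2 lay at -0.09 (adjusted p = 0.691).

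Complex II is built of a flavoprotein (Sdha), an iron-sulfur protein (Sdhb) and membrane anchors (Sdhc and Sdhd). Of its 5 tested subunit probes 1 was called, the Sdhb probe lower in methanol brains (2.49% of all tested probes were). The median log2 change was -0.08. Sdhc had 10.35, 10.47, 10.23 and 10.08 on the methanol arrays, against 10.78, 10.51, 10.55 and 10.52 on the saline arrays. All methanol arrays were lower, by 0.039 at the nearest pair, with a log2 change of -0.31 (standard error 0.094). Its adjusted p of 0.0745 (limma) missed the threshold. Without methanol replicate 2 it passed, with a log2 change of -0.37 and an adjusted p of 0.0423. The other Sdhc probe was detected on 0 of 8 arrays.

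Sdhd, the second anchor, had a log2 change of -0.07, well within its spread (adjusted p = 0.731). The 4 Sdhaf probes are for the factors that insert the flavin or the iron-sulfur clusters of complex II. They had a median log2 change of -0.03 and no call (5.6% of all tested probes were called). Sdhaf2, needed for attaching the flavin to Sdha, had the highest log2 change of these, with 8.21, 7.92, 8.17 and 8.32 on the methanol arrays, against 7.95, 7.81, 7.96 and 7.99 on the saline arrays. The groups overlapped through methanol replicate 2, and the log2 change of 0.23 had an adjusted p of 0.212. Sdhaf1, which protects the iron-sulfur subunit, lay at -0.16 (adjusted p = 0.361).

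None of the 8 tested complex III probes was called (5.6% of all tested probes were), and their median log2 change was 0.02. The largest fall was in Uqcrc1, a core protein, with 10.58, 10.60, 10.65 and 10.64 on the methanol arrays, against 10.68, 10.89, 10.72 and 10.80 on the saline arrays. The groups did not overlap, by a gap of 0.022, but the log2 change was -0.16 with an adjusted p of 0.239 (limma). The largest positive value was that of Uqcr11, a small subunit, at 0.16 (adjusted p = 0.243). Uqcr10, also a small subunit and the brightest of the complex III probes, had log2 changes of 0.09 and 0.06 on its 2 probes. Cyc1, the cytochrome c1 that hands electrons to cytochrome c, was at -0.08 (adjusted p = 0.613). The probes of Uqcrfs1, the Rieske protein, and of Uqcrq were not well above background on any array, so these subunits had no comparison here.

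Cytochrome c, the mobile carrier between complexes III and IV, was read by 2 Cycs probes. The first had 6.77, 6.76, 6.78 and 6.79 on the methanol arrays, against 6.54, 6.76, 6.71 and 6.47 on the saline arrays. The methanol values were closely spaced and met the highest saline value. The log2 changes were 0.15 (adjusted p = 0.484) and 0.11 (adjusted p = 0.649), neither beyond the spread.

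The subunits of complex IV, the enzyme that formate inhibits, showed no call among 16 tested probes (5.6% of all tested probes were called). Their median log2 change was 0.08, beside -0.0021 over all tested probes, with 12 of the 16 above 0, against 49.5% of all tested probes. The genes share the arrays, and this count was not tested. Cox5b, a structural subunit, came nearest to the threshold and was singled out after its values were seen. It had 12.95, 13.11, 12.99 and 12.97 on the methanol arrays, against 12.88, 12.76, 12.81 and 12.68 on the saline arrays. The groups did not overlap, and the log2 change was 0.22 with a 95% interval of 0.07 to 0.38 and an adjusted p of 0.0849 (limma). Cox8a, the brightest complex IV probe, had 13.23, 13.23, 13.30 and 13.19 on the methanol arrays, against 13.28, 13.15, 13.03 and 13.11 on the saline arrays. Its log2 change of 0.09 was within the spread (adjusted p = 0.494). Cox7a2l, a relative of Cox7a known for joining complexes III and IV into a supercomplex, had the lowest change, -0.24 (adjusted p = 0.202), with overlapping groups.

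Several complex IV subunits exist as pairs, a form used in most tissues and a form known from heart and skeletal muscle, lung or testis. The forms used in most tissues were detected on 8 of 8 arrays, and none passed the test. Cox4i1 lay at -0.09, the Cox6a1 probes at 0.07 and 0.16, Cox7a2 at 0.09 and Cox7b at 0.20. The 2 Cox6b1 probes lay at -0.001 and 0.02, on opposite sides of 0 but with 95% intervals that both span it. The probes of Cox4i2, known from lung, of Cox8b, known from heart and muscle, and of Cox7b2 and Cox8c, known from testis, were not well above background on any of the 8 arrays.

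The heart and muscle forms Cox6a2 and Cox7a1 were detected on all 8 arrays. Cox6a2 had 7.37, 6.73, 7.06 and 7.06 on the methanol arrays, against 7.40, 7.36, 7.07 and 7.16 on the saline arrays, a log2 change of -0.19 (adjusted p = 0.474). Cox7a1 had 6.83, 6.35, 6.41 and 7.13 on the methanol arrays, against 6.60, 6.45, 6.12 and 6.47 on the saline arrays, a log2 change of 0.27 (adjusted p = 0.408). The groups overlapped for both. Of 8 probes for a list of striated muscle markers, 2 were tested, those of Acta1 and Myl1. Of these 1, Myl1, was called higher in methanol brains (3.12% of all tested probes were). Acta1 lay at -0.11 (adjusted p = 0.782, limma). The other Myl1 probe and those of Ckm, Myh7 and Tnnt3 were detected on 0 arrays. An Mb probe was detected on 2 methanol arrays and 1 saline array, and the other Mb probe on 0 arrays. The part of muscle RNA in the levels of Cox6a2 and Cox7a1 was not tested.

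Cox6b2, the testis form of Cox6b1, had a detected and an undetected probe. The detected probe had 5.96, 6.49, 5.72 and 6.10 on the methanol arrays, against 5.92, 5.73, 5.84 and 5.44 on the saline arrays. These values lie close to the lowest detected signal of an array, 5.369 to 5.554 across the 8 arrays. Its log2 change of 0.33 had an interval from -0.04 to 0.71 and an adjusted p of 0.306 (limma). Without background correction it was 0.10, and that of Cox7a1 was 0.11, both below the 0.22 of Cox5b. Without methanol replicate 2 it was 0.19.

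The assembly factors of complex IV spanned the widest range of log2 change of these groups, -0.21 to 0.67. Of 8 tested probes 2 were higher in methanol brains, Cox15 and Cox11 (3.12% of all tested probes were), and 6 were not called, with a median log2 change of 0.03. Cox10 makes heme O, the precursor that Cox15 turns into heme A. It had 10.27, 10.28, 10.48 and 10.15 on the methanol arrays, against 10.26, 10.19, 10.13 and 10.35 on the saline arrays. With a log2 change of 0.06 (adjusted p = 0.729), Cox10 had a 95% interval of -0.12 to 0.24, below that of Cox15, although the difference between these genes was not tested. Cox17, which carries copper towards the factors that load complex IV, likewise lay at 0.006 (95% interval -0.17 to 0.18, adjusted p = 0.981).

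Cox18, which helps insert the Cox2 subunit into the inner membrane, was read by 2 probes, at -0.21 (adjusted p = 0.194) and -0.20 (adjusted p = 0.415). The first had 8.61, 8.74, 8.60 and 8.69 on the methanol arrays, against 8.79, 8.77, 8.87 and 9.03 on the saline arrays, with no overlap, and the second overlapped. Cox14 and Cox19, further assembly factors, lay at 0.16 (adjusted p = 0.285) and -0.05 (adjusted p = 0.79). The 3 probes of Cox16 were detected on 0 arrays.

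Complex V had no call among 16 tested probes (5.6% of all tested probes were called), and its median log2 change was 0.01. Atp5a1, the alpha subunit of the catalytic head, had the highest change, with 11.28, 10.95, 10.89 and 11.20 on the methanol arrays, against 10.88, 10.75, 11.00 and 10.87 on the saline arrays. The groups overlapped, and the log2 change of 0.20 had an adjusted p of 0.234 (limma). Atp5o, a peripheral stalk subunit, had the lowest, -0.23 (adjusted p = 0.334). Atp5pb, also of the peripheral stalk, was singled out after its values were seen, because its groups did not overlap. It had 9.73, 9.82, 9.79 and 9.66 on the methanol arrays, against 9.96, 9.83, 9.98 and 9.91 on the saline arrays. The nearest pair differed by 0.0062, and the log2 change of -0.17 had an adjusted p of 0.214.

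Atp5b, the catalytic beta subunit, was the brightest probe of complex V and took only 2 values, 14.49 and 14.53, each on 2 methanol and 2 saline arrays. Quantile normalization gives the same value to probes of the same rank, so near the top of the scale it leaves little room for a difference. The intensities before normalization were 28522, 23262, 22515 and 20777 on the methanol arrays, against 23769, 24434, 22851 and 22642 on the saline arrays, and these overlapped too. The genes of the membrane c ring, which turns as protons pass, also showed no call: Atp5g1 lay at -0.03, Atp5g2 at -0.22 and Atp5g3 at 0.09.

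Read over all members, 8 of 59 tested probes had groups that did not overlap (13.6%), against 12.4% of all tested probes. Higher in methanol were 3 (5.08%, against 6.6%), namely Cox15, Cox11 and Cox5b. Lower were 5 (8.47%, against 5.77%), namely a probe each of Sdhb, Sdhc, Cox18, Uqcrc1 and Atp5pb. Before adjustment, 12 members had p under 0.05 (20.3%), against 20.7% of all tested probes, with 6 higher (10.4% of all tested probes were) and 6 lower (10.3% were). The median log2 change of the members was 0.0381, and it was 0.0083 without methanol replicate 1 and 0.0197 without saline replicate 2. The median deviation of the members had an SD of 0.045 between arrays of a group. This is the spread of single arrays, not of a difference between groups, and the median change was not tested. Above 0 were 34 of the 59 probes (57.6%), against 49.5% of all tested probes. The 95% interval reached beyond -0.5 or 0.5 for 7 probes, those of Cox15, Cox11, Cox6b2, Cox7a1, Sdhc and 2 of Sdhb. For the other 52 the interval lay inside these limits, each probe taken alone and with no adjustment for the number of probes.

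Detection split the members sharply. All 59 tested probes were detected on 8 of 8 arrays, while 12 of the other 13 were detected on 0 arrays and an Atp5j probe on 1 methanol array. No member was therefore tested because it was detected in 1 group only. The undetected probe not yet named was that of Atp5k, a subunit of the membrane part of complex V. An undetected probe gives a bound for that probe and says nothing of the gene.

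**Figure D3:**
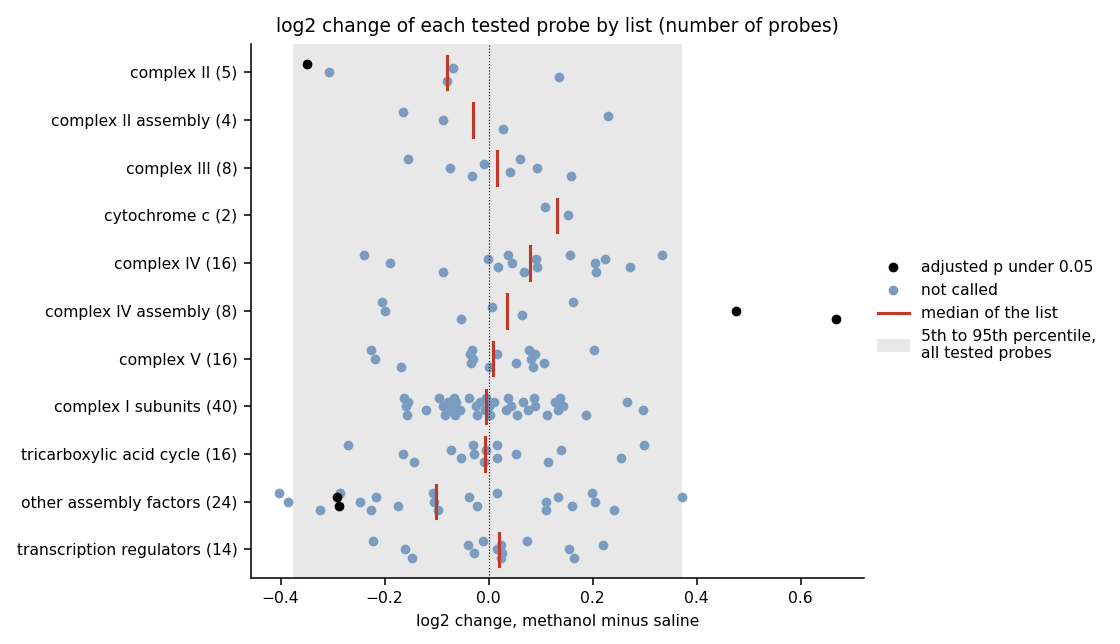
Each point is the log2 change (methanol minus saline, x axis) of a tested probe, in rows for the parts of complexes II to V and for 4 other lists, with the number of probes in brackets, a red line at each median and black points for an adjusted p under 0.05. The grey band runs from the 5th to the 95th percentile of all tested probes (-0.38 to 0.37), so it leaves out 5% of them at each end. Of the 59 tested members 2, Cox15 and Cox11, lie outside it.

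Genes that work with these complexes were read from lists drawn up by function. Of all tested probes, 5.6% were called, the share beside which the counts of these lists stand. The 40 tested probes of complex I subunits, the entry point for electrons from NADH, held no call in either direction. Their median log2 change was -0.01. The 16 probes of the tricarboxylic acid cycle, which feeds complexes I and II, also held no call and had a median of -0.01. The 14 probes of regulators of respiratory gene transcription held no call and had a median of 0.02. The genes of NRF-1 (Nrf1) and of a GABP subunit (Gabpb1) were among them. The probes of Gabpa, another GABP subunit, and of Yy1 were detected on 0 arrays, so these genes had no comparison here.

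Other assembly factors of complexes III to V, outside the naming rule, were read with Atpif1, Lrpprc and Oma1, which are not strictly assembly factors. This list had 24 tested probes, of which 0 were higher and 2 lower in methanol brains (3.12% and 2.49% of all tested probes were). Its median log2 change was -0.10. Coa3, which supports the making and early assembly of the Cox1 subunit, had 10.79, 10.69, 10.58 and 10.67 on the methanol arrays, against 10.96, 11.02, 11.05 and 10.85 on the saline arrays. The groups did not overlap, and the log2 change was -0.29 with a standard error of 0.075 and an adjusted p of 0.0354 (limma). Uqcc1, needed to make the cytochrome b of complex III, had 9.09, 9.26, 9.20 and 9.15 on the methanol arrays, against 9.46, 9.48, 9.40 and 9.51 on the saline arrays. Its groups were also apart, with a log2 change of -0.29 and an adjusted p of 0.0376. Both lay on the other side of 0 from Cox15 and Cox11. The Coa3 call was lost without methanol replicate 2, 3 or 4 or saline replicate 2 or 3 (adjusted p 0.0622 to 0.115), and the Uqcc1 call without any array other than methanol replicate 2 (0.0533 to 0.115).

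**Figure D4:**
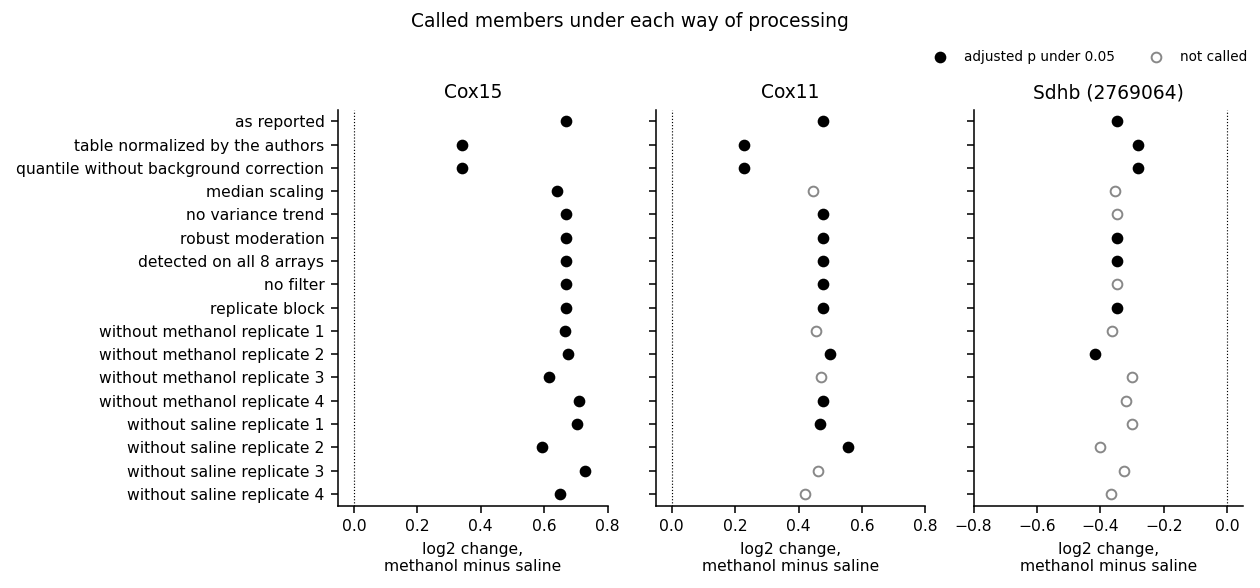
The log2 change (methanol minus saline, x axis) of the 3 called members is drawn for the reported values and for 16 alternatives (rows), filled where the adjusted p was under 0.05. Cox15 is filled in every row, with its lowest values of 0.34 where no background correction was made, Cox11 is open in 5 rows and the Sdhb probe in 10.

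Between 11291 and 12366 probes were detected on a methanol array and between 11855 and 12199 on a saline array, and the correlation of all tested probes was 0.981 to 0.989 within groups and 0.973 to 0.984 between them. Markers of neurons (5 tested probes), astrocytes (10) and endothelium (4) held no call. Of 12 oligodendrocyte probes 2 were higher and of 7 microglia probes 1 was lower in methanol brains. Over all tested probes, 3.12% were higher and 2.49% lower. Of 3 choroid plexus probes 1, for Kl, was lower in methanol brains, and these markers varied widely among the saline arrays. Ttr had 9.22, 8.61, 9.67 and 8.40 on the methanol arrays, against 10.59, 11.50, 14.40 and 7.53 on the saline arrays, and saline replicate 3 was also the highest for Clic6 and Kl. Of 5 red cell probes 4 were lower in methanol brains, with log2 changes between -2.01 and -1.47. These were the probes of Hba-a1, Hbb-b2, Hbb-bt and Alas2. The part of these shifts in the values of the members was not tested.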

How the data were processed

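Total RNA of mouse brain was hybridised to 8 Illumina mouse arrays. The deposited intensities of the authors' value table were not normalized and were the starting point. The deposited table titled as non-normalized held identical sorted columns, so it was treated as intensities that the authors had normalized between arrays, and it gave the detection p-values, which per the file headers belong to each array. Arrays carry no read depth, and precision is set by how many were run. limma 3.58.1 in R 4.3.3 was used for background correction (normexp from detection p, offset 16), quantile normalization, log2, lmFit and eBayes with a variance trend (two-sided). Probes with detection p under 0.05 on at least 4 arrays were tested (11938), adjusted by Benjamini-Hochberg and called under 0.05. The script was tested on simulated data. Of the probes, 23978 had 1 gene symbol in the platform annotation and 1719 were unnamed here, and all 59 member genes matched RefSeq by gene ID. The members and lists were chosen with earlier results of these data known. Named were called probes, the brightest, highest and lowest of each complex, genes whose probes disagree, isoforms of complex IV, and called probes of the other lists. Chosen after their values were seen were Cox5b, Atp5pb and Surf1 and, described for their roles, Cox10, Cox14, Cox19, Sdhd, Sdhaf1, Cyc1, the Atp5g genes and the other probes of Uqcr10 and Cox18. The methods state cubic spline normalization and another test, and the authors' normalized table was an alternative.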

Additional observations from a re-analysis of the deposited data

Results flagged for a closer look

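Among 92 groups of 4 arrays examined for the named probes, 4 held an array that stood apart from the other 3 beyond the 95% limit of Dixon's test. Chance gives about 1 in 20 such groups. The Cox6b1 probe ILMN_1254971 was at 12.31 on methanol replicate 2, below 12.44 to 12.46 on the other methanol arrays. Cox7b was at 7.37 on saline replicate 2, below 7.69 to 7.75 on the other saline arrays. On saline replicate 1, Sdhc was at 10.78, above 10.51 to 10.55, and Cox17 was at 11.50, above 11.28 to 11.31. None of these 4 probes was called.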

How the results depend on the processing

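Over all probes, 372 were called higher and 297 lower. Median scaling gave 161 and 168, and counting groups that do not overlap gave 788 and 689. Leaving out 1 array gave 204 to 465 higher and 145 to 428 lower. Of the members, 2 were called higher and 1 lower. Higher calls numbered 1 with median scaling and 1 to 2 without 1 array. Lower calls numbered 0 with median scaling, without the variance trend, without the detection filter or with a fold of at least 1.3 required, 5 as groups that do not overlap, and 0 to 2 without 1 array. The samples were treated as unpaired. Correlations of same-numbered deviations were 0.185, -0.109, -0.013 and 0.25, against -0.224 to 0.196 for other pairings. Whether the replicate numbers pair the samples is therefore not settled. With the replicate block, 477 probes were higher and 483 lower. There 2 members were lower, Sdhc joining Sdhb with an adjusted p of 0.038 by limma. The Uqcc1 call was lost with the block (0.051), and both Coa3 and Uqcc1 were lost with median scaling, without the trend and without the filter. The sign changed for named probes near 0, none of them called in any setting. Median scaling gave 0.035 for the Cox6b1 probe ILMN_1254971 and 0 for Cox17. Without 1 array, the log2 change ranged from -0.032 to 0.041 for that Cox6b1 probe and -0.039 to 0.058 for the other. It ranged from -0.287 to 0.095 for the Sdhb probe ILMN_2592389, -0.004 to 0.173 for Cox7a2 and -0.028 to 0.059 for Cox17. For the Uqcr10 probe ILMN_3142224 it was -0.012 to 0.11, and for Atp5g1 -0.061 to 0. Atp5b, at 0 in the reported values, ranged from -0.008 to 0.008 and is not counted as a change of sign. The cause was not tested. Over the named probes and these alternatives, 682 values kept their direction and side of the threshold, most of them of probes that were not called. A call was lost in 34 values and gained in 2, and the sign changed in 18. The lost calls were 11 for Uqcc1, 10 for the Sdhb probe ILMN_2769064, 8 for Coa3 and 5 for Cox11, each of 16 alternatives. With 4 arrays a group and a median SD of 0.11 for a member, small changes in a single gene cannot be told from none.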

Other observations

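Surf1, a complex IV assembly factor known from Leigh syndrome and outside the naming rule, was singled out after its values were seen because its 2 probes disagreed. The probe ILMN_2883561 had 7.08, 6.86, 7.05 and 6.78 on the methanol arrays, against 7.13, 7.35, 7.24 and 7.35 on the saline arrays, with no overlap and a log2 change of -0.33 (adjusted p = 0.108, limma). The probe ILMN_2657141 had 8.39, 8.36, 8.27 and 8.20 on the methanol arrays, against 7.92, 8.28, 8.02 and 8.18 on the saline arrays, with a log2 change of 0.20 (adjusted p = 0.259). Neither passed the test. Like Sdhb, Surf1 thus had probes on opposite sides of 0, and which transcript each probe reads was not tested.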
